A study of Mus musculus with 12 samples.

Results

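The serpin genes examined here were the 38 autosomal genes whose name on the array begins with Serpin, out of 19944 named autosomal genes on the same array. They were chosen by name alone and carried 61 of the 40666 autosomal probes, with 15 genes measured by 1 probe and 23 by 2. Of these genes, 29 lay in 3 clusters: a Serpina cluster of 11 genes on chromosome 12, a Serpinb cluster of 8 genes on chromosome 1 and a Serpinb cluster of 10 genes on chromosome 13. The other 9 genes lay at 7 smaller loci, which makes 10 loci in all. Serpina7, the 1 serpin gene with probes on chromosome X, was left out because the chromosome was not part of the rule. RefSeq lists 62 protein-coding autosomal Serpin symbols in the mouse, and 24 of them had no probe of that name. Those 24, which include Serpina1a to Serpina1e, Serpina3k and Serpind1, were not analysed here.

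Serpins are protease inhibitors that share a fold with an exposed reactive loop. Most of them act as suicide substrates: the target protease cleaves the loop, and the serpin then changes shape and traps the enzyme. Hepatocytes secrete many clade A serpins and the inhibitors that restrain coagulation, fibrinolysis and complement, whereas clade B serpins lack a classical secretion signal and act mostly inside cells against proteases such as neutrophil elastase and granzyme B. Some family members inhibit nothing and work as hormone carriers or chaperones. Tandem duplication placed many serpin genes side by side, so neighbours in a cluster have the same copy number unless a breakpoint lies between them.

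Copy number was measured by array comparative genomic hybridization in 12 liver tumors of Mdr2-KO/FVB mice, with the non-tumor liver of the same mouse as reference on each array. All of the mice lacked Mdr2 (Abcb4), the canalicular phospholipid transporter whose loss gives chronic cholestatic inflammation and later hepatocellular carcinoma. The post-PHx group held 6 tumors (4 from males, 2 from females) taken at 9 months of age from mice that had undergone 70% partial hepatectomy (PHx) at 3 or 6 months. The spontaneous group held 6 tumors (2 from males, 4 from females) taken at 13 to 14 months from mice without surgery. Surgery, age and in part sex and slide thus differed together between the groups, and their effects cannot be told apart. There was no array of normal against normal liver, and any change shared by a tumor and its reference liver was not visible. Tumor pieces consisted mostly of tumor cells, so a change carried by every tumor cell would be diluted by the remaining cells. Below, tumors are named by group, number and sex (PHx1M, Spon5F), and all values are log2 of tumor over own liver, centred on the median autosomal probe of each array, which puts as many probes above as below 0. On this scale a loss of 1 of 2 copies in every cell is -1 and a gain to 3 copies is 0.58.

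The arrays differed in noise, and 3 of them stood apart. The spread between neighbouring probes was 0.155 to 0.187 in the post-PHx group. In the spontaneous group it ran from 0.147 in Spon1M to 0.265 in Spon2M, with 0.221 in Spon5F. Spon3F had 988 probes under -1.5, against 262 in Spon1M and 0 to 29 in the other 10 tumors. The 417 probes under -1 in Spon1M were far from 0 in all 3 of these tumors, with a median of 1.91 in Spon2M and -2.12 in Spon3F, and medians between -0.02 and 0.17 in the other tumors. The 988 probes of Spon3F were less far out elsewhere, with a median of -0.31 in Spon1M and 0.37 in Spon2M. No serpin probe was among those 417, and 3 serpin probes were among the 988. Whether every tumor and liver of these arrays came from the same mouse was not tested. Each array carried 39534 to 40592 usable autosomal probes. The median signal over background at serpin spots was 7.17 to 31.7 in the liver channel and 3.83 to 14.3 in the tumor channel, and 4 of 732 serpin spot values were dropped as outliers. No dye-swapped array was made, so a probe that favours a dye cannot be told apart from a gain or loss when a group is compared with 0, whereas in the difference between groups such a bias cancels as far as it is equal on all slides, which was not tested.

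The copy number of the serpin clusters was flat in the post-PHx tumors and varied in the spontaneous ones. Across the 6 post-PHx tumors the mean of each cluster lay between -0.09 and 0.13. In the spontaneous tumors the Serpina cluster was low in Spon5F and high in Spon4F and Spon2M, the chromosome 1 Serpinb cluster was low in Spon1M and high in Spon2M, and the chromosome 13 Serpinb cluster was low in Spon1M. Spon1M and Spon2M are among the 3 arrays that stood apart. Their slide, which also carried Spon4F, held spontaneous tumors only, whereas Spon5F shared a slide with post-PHx tumors. The part of slide in the wider spread was not tested. At 10 of 10 loci and in 35 of 38 genes the standard deviation (SD) over the spontaneous tumors was larger than over the post-PHx tumors. The same was true of 74.1% of all genes with 12 values, and the median SD of 1 Mb windows over the genome was 0.125 in the spontaneous and 0.0527 in the post-PHx group.

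**Figure D1:**
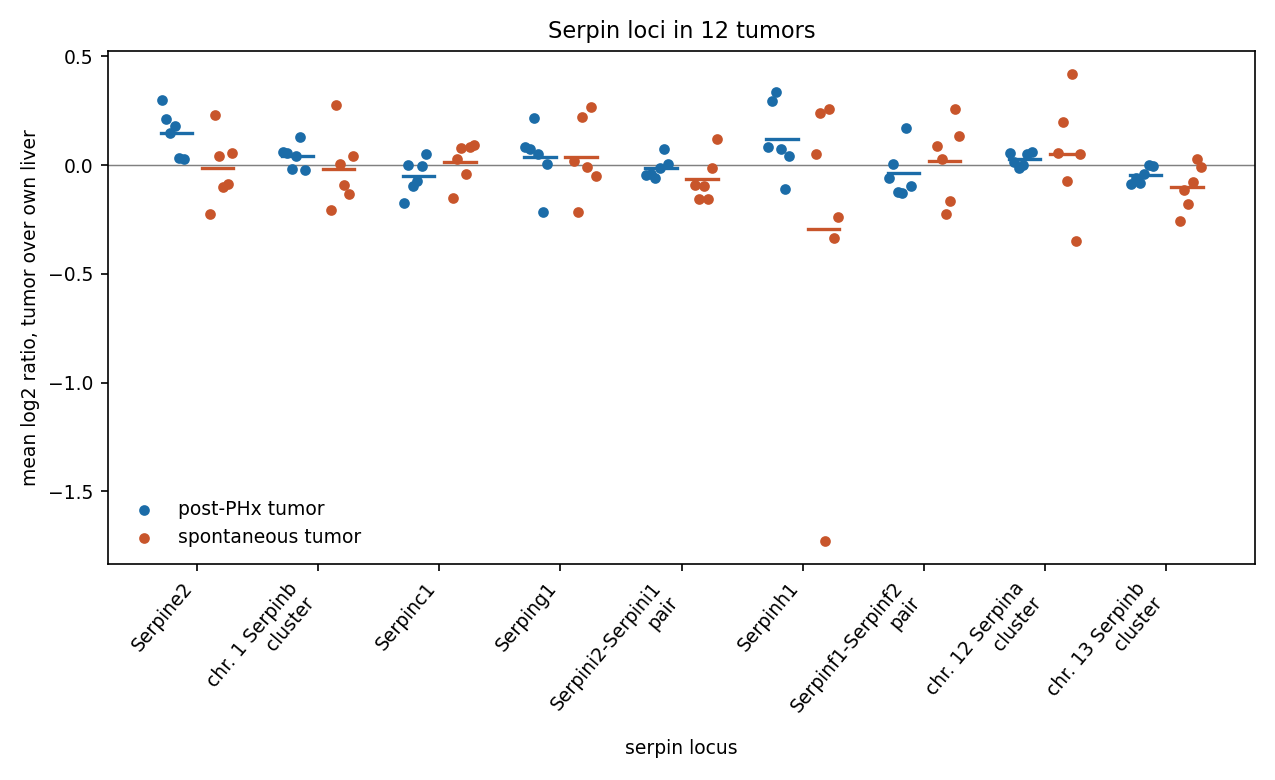
Mean log2 ratio of tumor over own liver (vertical axis) at 9 serpin loci (horizontal axis), with a point for each of the 6 post-PHx and 6 spontaneous tumors and a horizontal line at the mean of each group. The Serpina cluster lies between -0.02 and 0.06 in the post-PHx tumors and between -0.35 and 0.42 in the spontaneous tumors, and the lowest point of all is Serpinh1 in Spon3F at -1.73.

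Regions of gain and loss were called in each tumor where a run of at least 2 probes reached a score of 6 and a mean of at least 0.4 in either direction. Of the 456 combinations of a serpin gene and a tumor, 11 lay in a lost region and 0 in a gained region, whereas 0.662% of all combinations of a gene and a tumor lay in a lost and 1.62% in a gained region. The 11 combinations were the 11 genes of the Serpina cluster in Spon5F, all within 1 called region. None of the 228 combinations in the post-PHx tumors was lost, and 0.0% of all combinations in that group were. None of the 228 was gained, while 2.05% of all combinations in that group lay in gained regions.

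The Serpina cluster occupied chr12:104017703-104811636 in mouse build mm8, a stretch of 0.794 Mb with 17 probes. From the proximal end its genes on the array were Serpina10 (protein Z-dependent inhibitor of coagulation), Serpina6 (transcortin, the glucocorticoid carrier), Serpina1f (a relative of alpha1-antitrypsin), Serpina11, Serpina9 (centerin), Serpina12 (vaspin, an adipokine), Serpina5 (protein C inhibitor) and the antichymotrypsin-related Serpina3b, Serpina3c, Serpina3g and Serpina3n. The mean over the cluster was -0.02 at lowest, 0.03 at the median and 0.06 at highest in the post-PHx tumors (SD 0.033, n = 6), and -0.35, 0.05 and 0.42 in the spontaneous tumors (SD 0.257, n = 6). The post-PHx values all lay inside the spontaneous range, with 3 spontaneous tumors outside the range of the post-PHx group by more than 0.1.

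In Spon5F the whole cluster was lost. All 11 genes were below 0, and the cluster mean of -0.35 equals 0.785 times the liver signal. The lowest was Serpina12 at -0.56, followed by Serpina3b at -0.50, and the highest was Serpina10 at -0.07. The called region ran over 49.6 Mb (chr12:59864966-109468692, 802 probes) with a mean of -0.49, or 0.712 of the liver signal, and held 371 named genes. The 3 lost regions called in that tumor together held 5.69% of the named autosomal genes. The serpins were thus a small portion of a loss that took a large part of the chromosome, and its distal end lay 5.05 Mb from the cluster centre.

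In Spon4F the cluster was raised over its whole length. All 11 genes were above 0, from 0.15 for Serpina11 to 0.68 for Serpina10, and the cluster mean was 0.42 or 1.34 times the liver signal. The segment holding the cluster covered 116.7 Mb with 1500 probes at 0.36. In Spon2M, 10 of 11 genes were above 0, the cluster mean was 0.20 and the segment lay at 0.28. Both segments were under the level of 0.4 required for a call.

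A breakpoint in Spon1M lay close to the cluster without entering it. The median of the whole of chromosome 12 was 0.35 in Spon1M, and the serpin genes lay on a lower segment that began at chr12:95992124. The segment over the serpin genes was at -0.01 in that tumor, a segment of 17 probes at 0.26 began 0.81 Mb from the cluster centre, and a gained region of 6.09 Mb (chr12:106017416-112103477, 110 probes, mean 0.44) began 1.21 Mb beyond the last serpin probe. The remaining 8 tumors, among them all 6 post-PHx tumors, had a segment level of 0 at the cluster. The mean of the cluster differed from that of the probes within 1 Mb on either side by less than 0.15 in all 12 tumors, so that serpins and their neighbours had the same level within that margin.

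**Figure D2:**
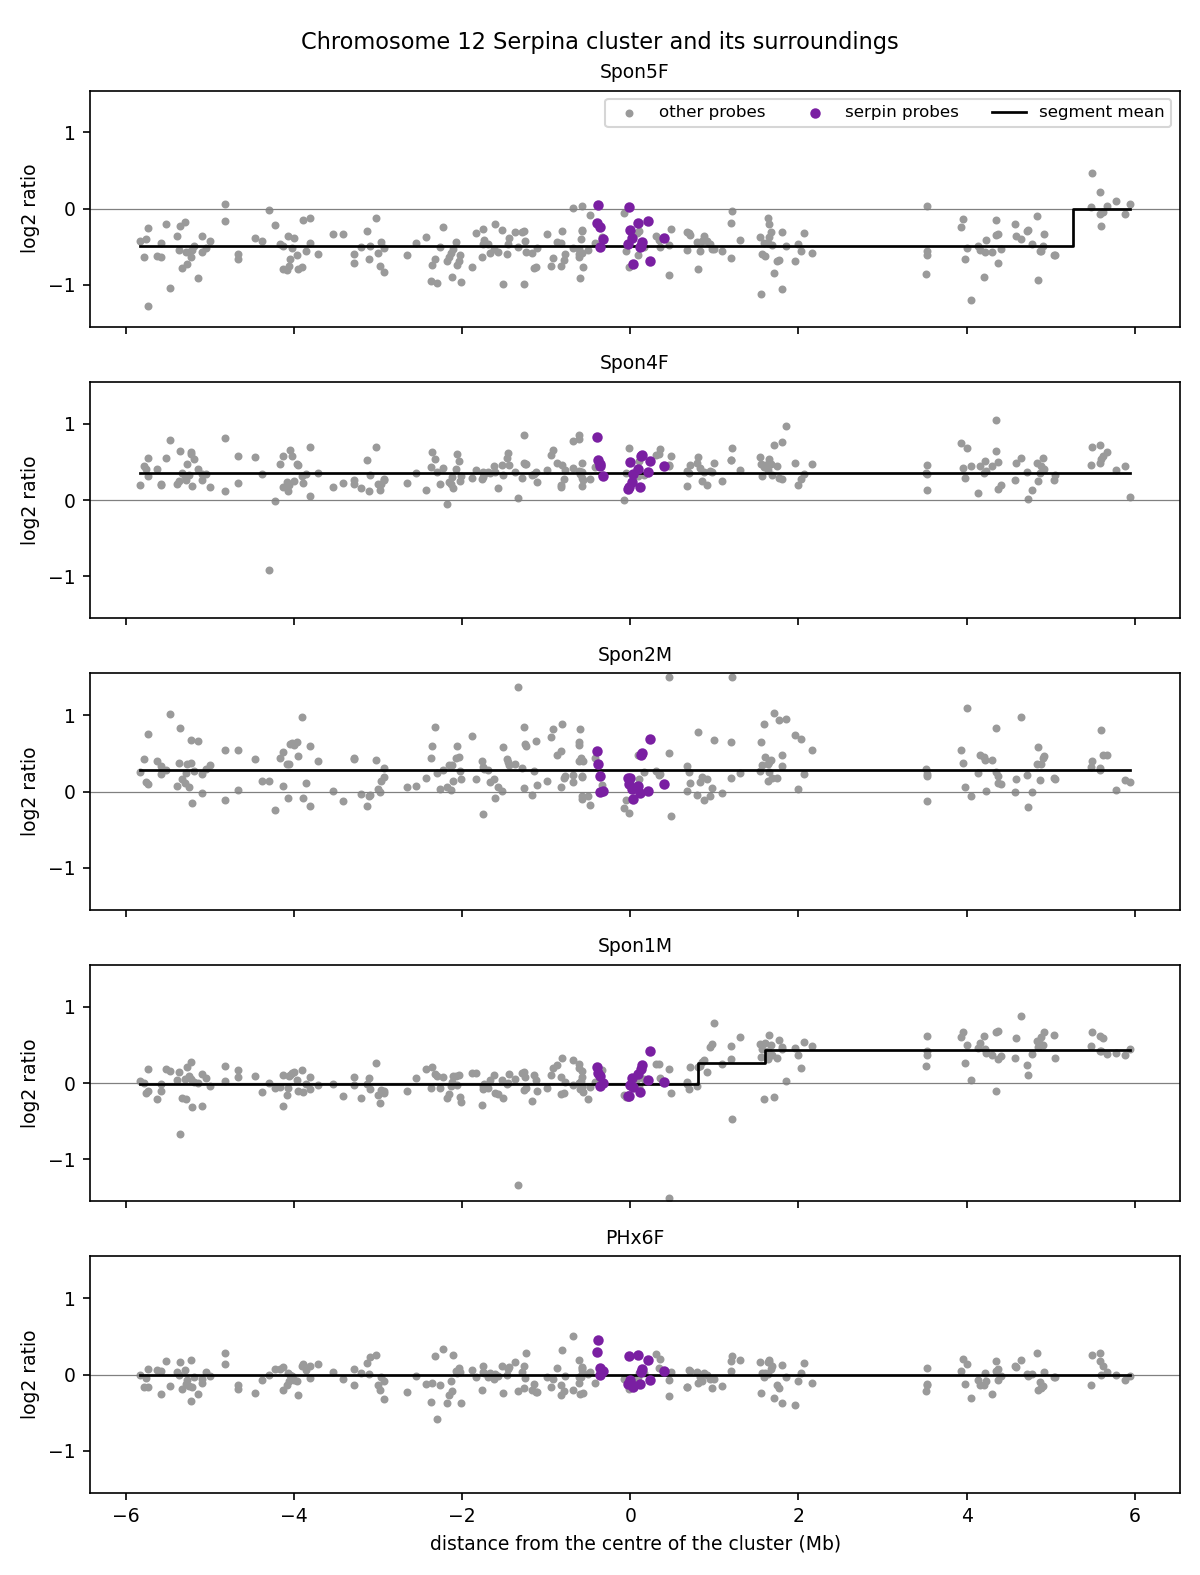
Log2 ratio of single probes (vertical axis) against the distance in Mb from the centre of the chromosome 12 Serpina cluster (horizontal axis) in 4 spontaneous tumors and PHx6F, with serpin probes in purple, black lines for segment means and probes beyond 1.5 in either direction drawn at that limit. Within the stretch drawn, the segment lies at -0.49 up to 5.05 Mb in Spon5F and at 0.36 throughout in Spon4F. In Spon1M it rises beyond the cluster, to 0.44, and in PHx6F it stays at 0. The median of the whole chromosome was 0.35 in Spon1M.

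Serpina10, whose product inhibits coagulation factor Xa on membranes with protein Z as cofactor, stood above the rest of its cluster in every tumor. Its values in the post-PHx tumors PHx1M to PHx6F were 0.21, 0.16, 0.30, 0.23, 0.21 and 0.38, and in Spon1M to Spon6F 0.18, 0.45, 0.34, 0.68, -0.07 and 0.17. All tumors but Spon5F were above 0, and the groups overlapped. The gene exceeded the mean of the other serpin probes of its cluster in 12 of 12 tumors by 0.14 to 0.47, on average by 0.25 in the post-PHx and 0.27 in the spontaneous tumors, so it was lowest with its neighbours in Spon5F and highest with them in Spon4F. All 29 cluster genes were compared in this way, and 2 lay on 1 side of the mean in all 12 tumors, 1 above and 1 below. Against own liver it was 0.29 in the spontaneous group (limma adjusted p = 0.0465) and 0.25 in the post-PHx group (limma adjusted p = 0.0964). The distance was present in every tumor whatever the level of the cluster, and the part of probe and dye in it was not tested.

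The chromosome 1 Serpinb cluster occupied chr1:108699896-109435727 (0.736 Mb, 15 probes). It held Serpinb5 (maspin), Serpinb12, Serpinb13 (headpin), Serpinb11, Serpinb7 (megsin), Serpinb2 (plasminogen activator inhibitor 2), Serpinb10 (bomapin) and Serpinb8. The cluster mean was -0.02 at lowest, 0.05 at the median and 0.13 at highest in the post-PHx tumors (SD 0.056, n = 6), and -0.21, -0.04 and 0.27 in the spontaneous tumors (SD 0.170, n = 6). The groups overlapped, and the extremes on both sides were spontaneous tumors.

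Spon1M and Spon2M moved in opposite directions here. In Spon1M all 8 genes were below 0, from -0.32 for Serpinb2 to -0.03 for Serpinb11, on a segment at -0.29. In Spon2M, 7 of 8 genes were above 0, up to 0.75 for Serpinb11, on a segment at 0.29 of 25.3 Mb with 146 probes (chr1:97155732-122431990). The same level returned over 61.6 Mb around Serpinc1 in Spon2M, and the median of the whole chromosome was 0.28 there. In Spon1M the level of -0.29 returned over 20.4 Mb around Serpine2, the segment at Serpinc1 was at 0, and the chromosome median was -0.15. The flanking probes were at -0.30 and 0.26 in these tumors, again close to the cluster. Neither segment reached the level required for a call, and both arrays belong to the 3 that stood apart.

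Within this cluster Serpinb5, the tumor suppressor maspin of epithelial cells, followed the cluster: it ranged from -0.05 to 0.25 in the post-PHx tumors and from -0.17 to 0.39 in the spontaneous ones, with the highest value in Spon2M. Serpinb7, a serpin of mesangial cells and skin, lay below the mean of the other serpin probes of the cluster in 12 of 12 tumors by 0.03 to 0.32, and below their median in 11 of 12. Serpinb11 had a pair of probes that differed by 0.311 on average, the largest mean difference of the genes with 2 probes, so its value rests on probes that disagree. Its high probe reached 1.12 in Spon2M where the other one was at 0.37.

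The chromosome 13 Serpinb cluster occupied chr13:32851471-33936717 (1.09 Mb, 16 probes). Its genes on the array were the elastase inhibitor Serpinb1a with Serpinb1b and Serpinb1c, the granzyme B inhibitor Serpinb9 with Serpinb9b, Serpinb9c and Serpinb9d, and Serpinb6a, Serpinb6b and Serpinb6c of the cathepsin G and trypsin-type inhibitor group. The cluster mean was -0.09 at lowest, -0.05 at the median and 0.00 at highest in the post-PHx tumors (SD 0.038, n = 6), and -0.26, -0.10 and 0.03 in the spontaneous tumors (SD 0.106, n = 6). The groups overlapped, and Spon1M and Spon2M, at -0.26 and -0.12, were lower than every post-PHx tumor. The mean of -0.18 in Spon3F rested on the single probe of Serpinb9d: without it the mean was -0.014, and the segment over the cluster lay at 0.

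In Spon1M all 10 genes were below 0, from -0.45 for Serpinb9d to -0.11 for Serpinb6c, on a segment of 23.9 Mb with 389 probes at -0.26. Proximal to it the same level went on beyond 1 interrupting probe at -2.70. The median of the whole chromosome was -0.24 in Spon1M. Serpinb9 lay between -0.29 in Spon1M and 0.16 in Spon2M among the spontaneous tumors and between -0.08 and 0.11 in the post-PHx tumors. Serpinb6a, an inhibitor of cathepsin G, lay between -0.29 in Spon1M and 0.13 in Spon3F and between -0.15 and 0.03 in the post-PHx tumors, so that in both genes the spontaneous values reached past the post-PHx range on either side. Serpinb1b, measured by 1 probe, varied most among the post-PHx tumors, from -0.57 in PHx1M to 0.26 in PHx5M, while the other genes of the cluster in PHx1M stayed between -0.32 and 0.04.

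Serpinb1a, which encodes an inhibitor of neutrophil elastase, was below 0 in all 12 tumors. Its values were -0.32, -0.21, -0.15, -0.25, -0.06 and -0.17 in PHx1M to PHx6F and -0.42, -0.30, -0.14, -0.27, -0.23 and -0.18 in Spon1M to Spon6F. The groups overlapped over most of their range. It lay below the median of the other serpin probes of the cluster in 12 of 12 tumors and below their mean in 11 of 12, the exception being Spon3F, where Serpinb9d pulls the mean down. The gene is measured by 1 probe, and the part of that probe and its dye in the offset, which ran from -0.30 to -0.05 against the median, was not tested.

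**Figure D3:**
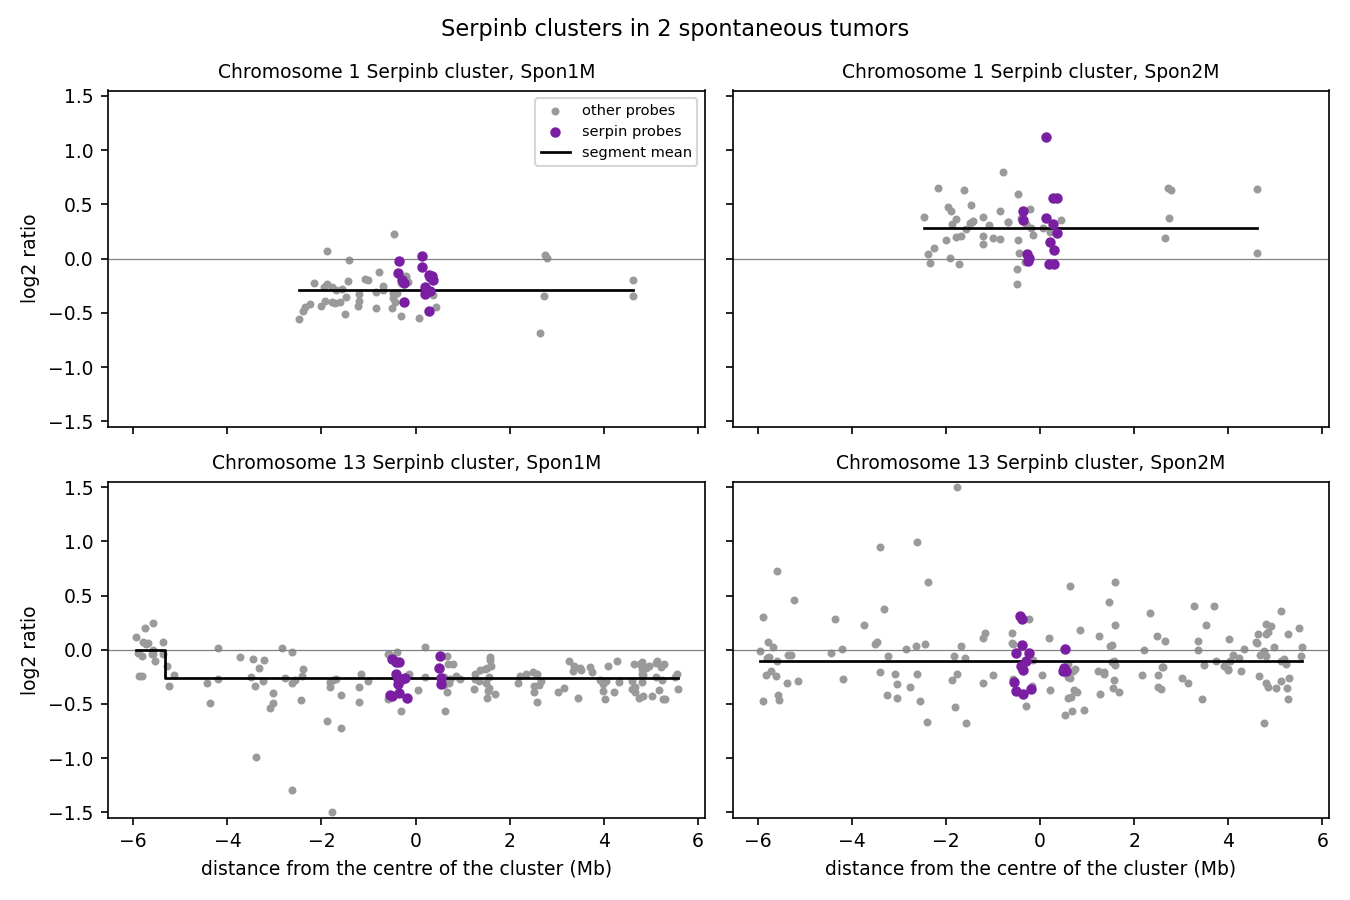
Log2 ratio of single probes (vertical axis) against the distance in Mb from the centre of the Serpinb clusters on chromosomes 1 and 13 (horizontal axis) in Spon1M and Spon2M, with serpin probes in purple, black lines for segment means and probes beyond 1.5 in either direction drawn at that limit. On chromosome 1 the segments lie at -0.29 in Spon1M and 0.29 in Spon2M, and on chromosome 13 the segments holding the cluster lie at -0.26 and -0.10.

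**Figure D4:**
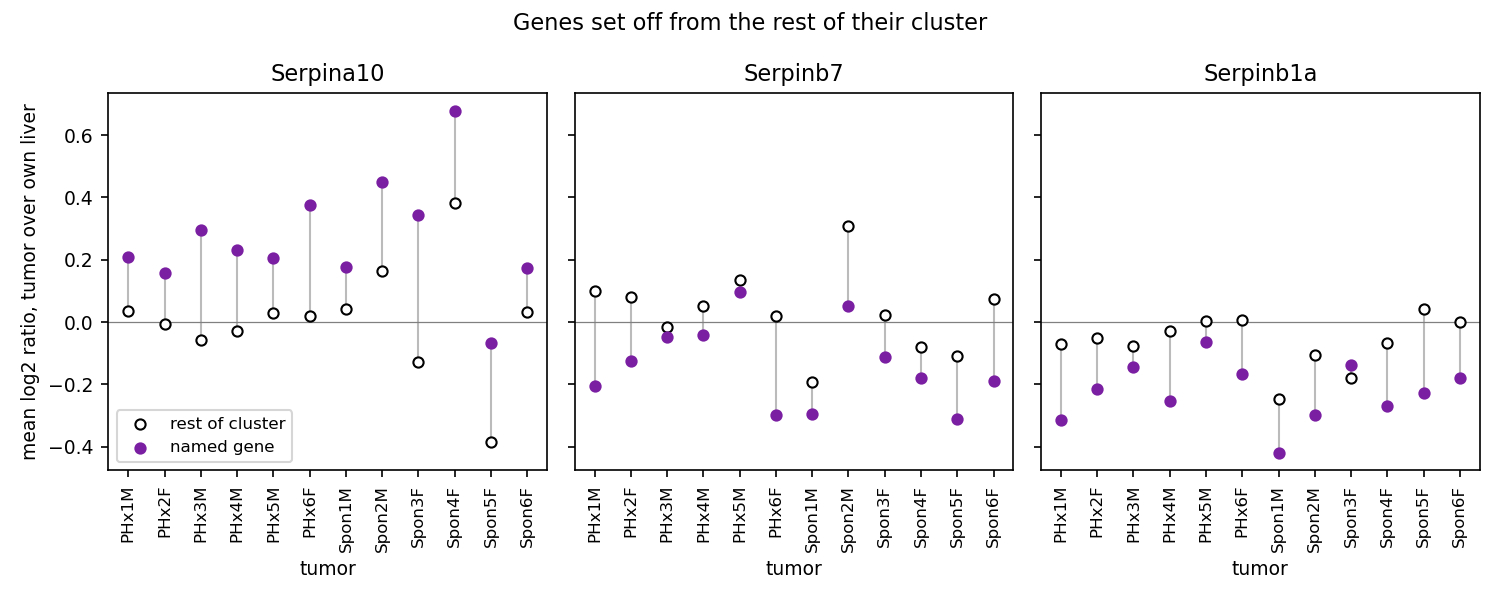
Log2 ratio of tumor over own liver (vertical axis) of Serpina10, Serpinb7 and Serpinb1a (filled) and the mean of the other serpin probes of the cluster of each (open) in the 12 tumors (horizontal axis), joined by a line. Serpina10 lies above the rest and Serpinb7 below it in all 12 tumors, and Serpinb1a below it in 11, the exception being Spon3F.

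In each group the tumors were compared with their own livers, which asks whether a gain or loss recurred across tumors. In the post-PHx tumors 1 of 38 serpin genes passed an adjusted p of 0.05 in limma, where 2.61% of 19928 genes did: Serpinb1a at -0.19 (standard error 0.044, adjusted p = 0.0396). In the spontaneous tumors 2 of 38 passed, where 4.25% of genes did: Serpinb1a at -0.25 (adjusted p = 0.0134) and Serpina10. Serpinb1a kept its call in the spontaneous group with each of the 12 tumors left out in turn (highest adjusted p = 0.0403). In the post-PHx group it lost the call when any of PHx1M, PHx2F, PHx3M, PHx4M, PHx6F, Spon4F or Spon6F was left out (7 of 12, highest adjusted p = 0.137), and Serpina10 lost it without any tumor but Spon5F (11 of 12, highest adjusted p = 0.107). With slide as a random block 0 of 38 genes passed in either group (Serpinb1a adjusted p = 0.124 and 0.0522, Serpina10 0.156), and with normexp background correction Serpinb1a in the post-PHx tumors was at -0.04 (adjusted p = 0.608). The median serpin gene was at -0.0048 in the post-PHx and -0.01 in the spontaneous group, and the median of all genes was 0.01 and -0.01. Without Spon1M, Spon2M and Spon3F, 0 of 38 genes passed in the spontaneous group, and Serpinb1a and Serpinb9d in the post-PHx group. Genes that share a segment are not independent of each other in these counts. The share of all genes was counted for the main fit only, not for the alternatives.

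The smaller loci hold inhibitors of blood and matrix proteases, and also Serpinh1 and the Serpini genes. Serpine2, protease nexin-1, an inhibitor of thrombin and urokinase, was above 0 in 6 of 6 post-PHx tumors (0.03 at lowest, 0.16 at the median, 0.30 at highest) and in 3 of 6 spontaneous tumors (-0.22, -0.02 and 0.23). Its neighbours within 1 Mb did not share the rise: their mean lay between -0.06 and 0.02 in the post-PHx tumors. The 1 Mb window that holds Serpine2 was at -0.0044 in that group and differed by 0.02 between the groups. In PHx1M the probes of the gene were at 0.08 and 0.53. The groups overlapped, and with normexp background correction the post-PHx mean turned from 0.15 to -0.062. The difference of 0.16 had an interval from -0.01 to 0.34 (adjusted p = 0.985 in limma). Within the slide that held tumors of both groups the difference was 0.04.

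Serpinc1, antithrombin, lay between -0.17 and 0.05 in the post-PHx and between -0.15 and 0.09 in the spontaneous tumors. Serping1, the C1 inhibitor of complement, lay between -0.21 and 0.22 and between -0.22 and 0.27. The 95% interval of the group difference ran from -0.20 to 0.07 for Serpinc1 and from -0.20 to 0.19 for Serping1.

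Serpinf1, the anti-angiogenic pigment epithelium-derived factor, and its neighbour Serpinf2, the plasmin inhibitor alpha2-antiplasmin, had 1 probe each. Serpinf1 ranged from -0.13 to 0.22 in the post-PHx tumors and from -0.35 to 0.34 in the spontaneous ones, and Serpinf2 from -0.14 to 0.12 and from -0.13 to 0.19. In both genes the spontaneous range enclosed most of the post-PHx range. Serpini1, neuroserpin, and Serpini2, a serpin of the pancreas, lay between -0.12 and 0.07 in the post-PHx tumors and between -0.19 and 0.13 in the spontaneous tumors.

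Serpinh1 encodes Hsp47, the collagen chaperone of the endoplasmic reticulum, which inhibits no protease. Its only probe was at -0.11, 0.08 and 0.34 (lowest, median and highest) in the post-PHx tumors and at -1.73, -0.09 and 0.26 in the spontaneous tumors, and the lowest of the 12 values was Spon3F. With normexp the post-PHx mean turned from 0.12 to -0.17. The neighbouring probes on either side were at 0.16 and -0.32 in that tumor. The same held at Serpina11 (-2.05, neighbours -0.08 and -0.20) and at Serpinb9d (-2.65, neighbours -0.20 and -0.02), all in Spon3F, where both channels were well above background. These are the 3 serpin probes among the 988 far probes of that array, and none lay in a called region.

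The main comparison asked whether serpin copy number differed between tumors that arose after PHx and those that arose without surgery. In the limma fit 0 of 38 serpin genes passed an adjusted p of 0.05, as did 0.0% of the 19928 genes. At an unadjusted p under 0.05 there was 1 serpin gene, where 4.26% of all genes were called. That gene was Serpinb9c, measured by 1 probe, with post-PHx values from -0.11 to 0.19 and spontaneous values from -0.26 to -0.03, which overlapped. It differed by 0.18 (standard error 0.066, interval 0.04 to 0.32, adjusted p = 0.985). The 1 Mb window that holds Serpinb9c, with 23 probes, differed by 0.05 between the groups.

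The differences were small in most serpins. The intervals of 37 of 38 genes held 0, and those of 35 of 38 lay within 0.5 of 0 on either side. The post-PHx mean was the higher one in 24 genes and the lower in 14, with a median difference of 0.03 against 0.01 over all genes. No serpin gene had groups that did not overlap, and 0.193% of the genes with 12 values did. In the Serpina cluster the differences ran from -0.11 for Serpina3c to 0.31 for Serpina11, in the chromosome 1 cluster from 0.01 for Serpinb8 to 0.10 for Serpinb11, and in the chromosome 13 cluster from -0.11 for Serpinb1b to 0.35 for Serpinb9d. Within the slide that held both groups Serpina3c was at 0.24 and Serpinb9d at -0.20, and these as well as Serpinb1b (0.01) had the other sign there.

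The largest differences rested on Spon3F. With that tumor the difference was 0.41 for Serpinh1, 0.31 for Serpina11 and 0.35 for Serpinb9d. Without it the values were 0.13, -0.03 and -0.07, so that the last pair changed sign. Among the liver-secreted serpins of the clusters, Serpina6 differed by -0.09 (interval -0.32 to 0.14) and Serpina3n by -0.03 (interval -0.26 to 0.20). Of the 12 windows of 1 Mb that hold a serpin probe, 0 passed an adjusted p of 0.05 (0.0% of 2057 windows) and 0 an unadjusted p under 0.05 (5.88%).

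**Figure D5:**
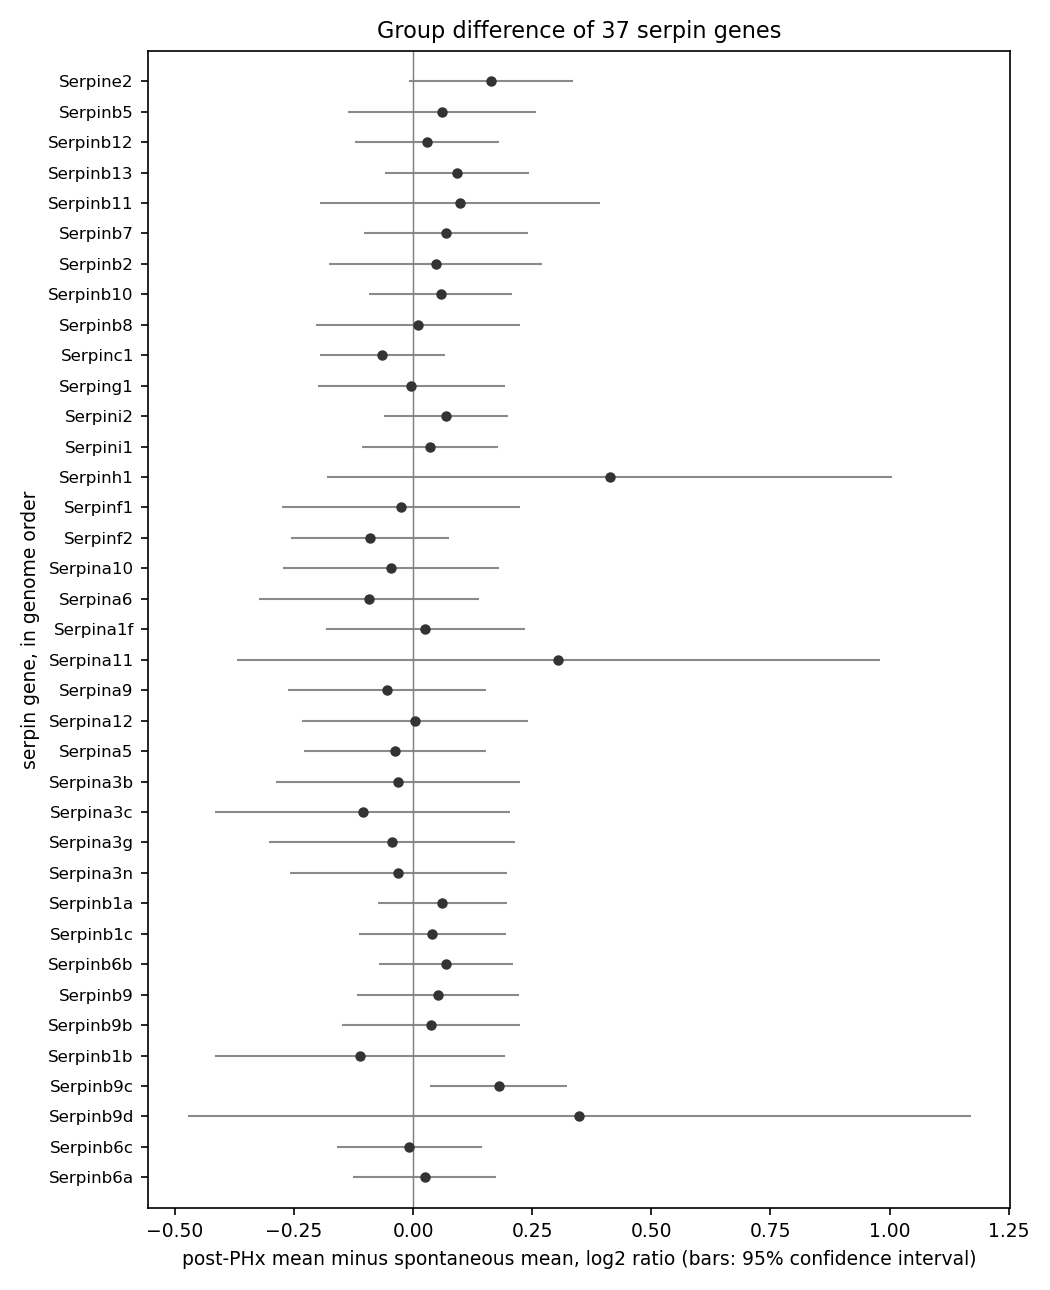
Post-PHx minus spontaneous difference in log2 ratio (horizontal axis) for 37 serpin genes, with the limma estimate as a point and its 95% confidence interval as a line. The intervals of 36 genes hold 0, the exception is Serpinb9c at 0.18, and the widest are Serpinh1, Serpina11 and Serpinb9d.

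Proteases that serpins inhibit and partners of serpins were taken as a list of 33 genes, of which 27 were tested. In the post-PHx tumors 1 of 27 passed in limma (2.61% of all genes): Prss8, the membrane-anchored protease prostasin, at 0.34 (standard error 0.066, adjusted p = 0.0224), measured by 1 probe with values of 0.56, 0.39, 0.42, 0.32, 0.41 and -0.03. All tumors of that group but PHx6F were above 0.3. In the spontaneous tumors, where it ranged from 0.03 to 0.39, it was at 0.21 (adjusted p = 0.0860), and 0 of 27 passed. For the difference between groups 0 of 27 passed.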

How the data were processed

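Per the file headers, the authors' scans were read with Agilent Feature Extraction 10.5.1.1 on a 4-array slide design in build mm8; tumor DNA was in Cy5 and liver DNA in Cy3. The deposited log10 ratio of background-subtracted, linearly dye-scaled signals was used, with the deposited error of that ratio (an "other" unit) as weight in region calling and the deposited mean and background intensity only for the alternative with normexp, a model-based background correction. Ratios were multiplied by the log2 of 10, outlier spots dropped, values centred on the autosomal median and averaged per gene. Groups came from the labels. Each tumor is 1 mouse and 1 array, so n counts mice, and the number of arrays limits the precision. Gene means and 1 Mb windows with at least 3 probes were fitted for all features in limma 3.58.1 (R 4.3.3) with Benjamini-Hochberg adjustment. Regions were called by an ADM-2-like search (score 6, at least 2 probes, mean of at least 0.4). Genes within 1 Mb formed a locus.

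Members, gene lists, comparisons and alternatives were chosen with earlier results of these data known. Named genes were those past the threshold, the extremes of each cluster, the highest and lowest single values and a list of liver and blood serpins. Other serpins are named as examples chosen after their values were seen. Alternatives were normexp, other centring, filters, probe medians, slide, sex or replicate terms, calling thresholds and left-out tumors. A member counted in the totals is not reported here by its own values. Exon or intron positions of probes and probe sequences were not analysed here.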

Additional observations from a re-analysis of the deposited data

Results flagged for a closer look

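Serpinh1, Serpina11 and Serpinb9d were set apart because Spon3F lay far below the other 5 spontaneous tumors. The values in Spon3F were -1.73 for Serpinh1 (next lowest tumor -0.33), -2.05 for Serpina11 (next lowest -0.46) and -2.65 for Serpinb9d (next lowest -0.45). The gap took 0.703, 0.710 and 0.808 of the whole range of the group, above the 95% limit of Dixon's test for 6 samples. Chance alone would set apart about 1 in 20 independent groups, and 3 of the 50 groups examined were. The 50 groups share tumors and all 3 were set apart by the same array, so that rate cannot be used to judge them. Each of these genes has 1 probe on the array, and Spon3F is the array with 988 probes under -1.5. In Spon1M and Spon2M, the other arrays that stood apart, the same probes were at 0.05 and 0.24 for Serpinh1, -0.16 and 0.18 for Serpina11 and -0.45 and -0.36 for Serpinb9d.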

How the results depend on the processing

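The comparison of post-PHx with spontaneous tumors gave 0 serpin genes and 0 serpin windows past an adjusted p of 0.05 under every alternative run, with slide or sex as a term, within the slide that held both groups and, as an alternative chosen after seeing the data, without Spon1M, Spon2M and Spon3F. The tumor numbers did not pair the samples (same-number correlations of -0.04 to 0.45), and with the number as a replicate block 0 of 38 genes and 0 of 12 windows passed. Against own liver the count of 1 serpin gene in the post-PHx tumors became 2 with normexp, 0 among genes with at least 2 probes, 0 with slide as a random block, 2 without the 3 tumors and 0 to 1 with each tumor left out. The count of 2 in the spontaneous tumors became 5 with normexp, 1 with centring on the mode, 1 among genes with at least 2 probes, 0 with slide as a random block, 0 without the 3 tumors and 1 to 3 with each tumor left out. The share of all genes called under each of these alternatives was not counted, so it is open whether the serpin counts moved with it. A level of 0.25 for calling gave 31 gained and 30 lost combinations of a serpin gene and a tumor, in Spon1M, Spon2M, Spon4F and Spon5F, and a level of 0.6 gave 0 lost. The share of all genes at these levels was not counted, so these numbers cannot be set against a background. With each tumor left out the lost combinations were 0 to 11, with 0 without Spon5F. Normexp moved the post-PHx mean to -0.062 at Serpine2, -0.027 at the chromosome 1 cluster, 0.14 at Serpinc1, 0.19 at Serping1, 0.054 at the Serpini pair, -0.17 at Serpinh1 and 0.00059 at the chromosome 13 cluster, and the spontaneous mean to 0.13 at Serpinc1. Of 1307 alternatives for named genes, 1281 stayed on the same side of the threshold, 25 lost the call, 1 gained it and 0 called values changed sign. Most of these alternatives belong to values that were not called in the main fit and so had no call to lose. Of the called values, Serpinb1a kept its call in 11 of 20 alternatives in the post-PHx group and in 18 of 20 in the spontaneous group. Serpina10 kept its call in the spontaneous group in 7 of 21. Among the values that were not called, 90 alternatives had the other sign, 74 of them for values of at most 0.1 in size. Of 216 alternatives for locus means, 18 had the other sign. The causes were not tested.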
